A study of Mus musculus with 9 samples.

Results

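The genes described here are 41 mouse genes of the amino acid response that is run by the transcription factor ATF4, in the labels' PancOVA pancreatic tumour cells. They were chosen by symbol, with earlier results of these data known. They fall into 4 roles: stress regulators, enzymes that make amino acids and one-carbon units, amino acid transporters, and cytosolic tRNA synthetases. Of the 41 symbols, 40 were found among the 41457 genes of the deposited expression table: 8 regulators, 13 enzymes, 8 transporters and 11 synthetases. The regulator Ddit3 was not analysed here. A level of at least 1 TPM (a level corrected for transcript length and scaled to 1000000 per library) in at least 3 libraries was required for testing, and 38 of the 40 members and 11704 genes in all met it. The enzyme Cbs (0.126 to 0.343 TPM) and the transporter Slc7a3 (0.0636 to 0.345 TPM) did not.

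All tumour cells came from the PancOVA line and had spent 48 h in matrigel with cells of the mouse pancreatic stellate line mPSC45 that carry CD90.1, after dye labelling with eFluor 670. The stellate cells had first been kept for 48 h in matrigel under low serum to become quiescent (qPSC), and these served as the control partners. For the myCAF group they had then been primed for 48 h with 2 ng/ml recombinant human TGF-β1, which gives myofibroblast-like fibroblasts. For the iCAF group they had been primed for 48 h with conditioned medium, and the protocol's name for these partners is Tc17-iCAF. The labels do not say whether the qPSC partners also spent a further 48 h in culture. Priming and time in culture therefore cannot be told apart in comparisons with qPSC. Dye-positive cells were sorted from the dissolved droplets, and 3 stranded mRNA libraries per group were sequenced with 50-base single reads. The stellate cells are 1 line in every group, and tumour cells without a fibroblast partner were not analysed here. The labels do not say that replicates came from separate fibroblast preparations, so the p-values reflect only how far these libraries differ, and that spread may be technical.

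ATF4 is the effector of the integrated stress response. When amino acids run short, or when unfolded protein or other stresses activate an eIF2α kinase, general translation falls while the Atf4 message is translated more, so that Atf4 RNA is only a partial measure of its activity. ATF4 then binds, often with a C/EBP partner, to a composite C/EBP-ATF element and raises genes that make, import and charge amino acids. Pancreatic tumour cells live in nutrient-poor, fibroblast-rich tissue, and fibroblasts can both supply and consume amino acids there.

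The letters of the composite element, TGATGNAA, were looked for on both strands from 250 bases before to 50 bases after the transcription start of each gene, in RefSeq promoters of GRCm38.p6. Of the 40 members, 32 had a promoter entry (not Cth, Slc7a5, Slc7a3, Slc1a5, Wars, Nars, Lars and Cars), and 12 of these 32 (37.5%) held the letters, against 237 of 9007 tested genes (2.63%) and 3.97% of all promoter windows. They were found in 5 of 7 synthetases (Aars, Gars, Iars, Tars and Yars), 3 of 8 regulators (Trib3, Chac1 and Nupr1), 2 of 5 transporters (Slc7a11 and Slc1a4) and 2 of 12 enzymes (Asns and Pycr1). A match is a description of these letters, not evidence of binding. The stretches below, all upstream of the start, are those of the regulator with the largest difference between cocultures, of the enzyme with the largest, of the cystine transporter and of a synthetase. Each is written 5′ to 3′ on the gene's strand with the letters in capitals; TTGCATCA and TTTCATCA are the element read from the other strand.
Chac1, chr2:119351003-119351102, plus strand: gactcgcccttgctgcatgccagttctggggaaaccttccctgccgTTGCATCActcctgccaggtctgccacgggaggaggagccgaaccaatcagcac
Pycr1, chr11:120643798-120643897, minus strand: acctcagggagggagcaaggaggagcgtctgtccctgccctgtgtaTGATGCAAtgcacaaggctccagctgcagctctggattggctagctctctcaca
Slc7a11, chr3:50443626-50443725, minus strand: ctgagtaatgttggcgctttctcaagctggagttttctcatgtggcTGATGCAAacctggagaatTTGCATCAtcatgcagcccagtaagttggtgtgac
Gars, chr6:55037925-55038000, plus strand: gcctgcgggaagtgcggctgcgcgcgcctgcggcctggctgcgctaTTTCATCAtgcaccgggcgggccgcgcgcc
The element began 193 bases before the start in Chac1, 103 in Pycr1 and 30 in Gars. Slc7a11 carried it as an inverted pair, 66 and 47 bases before the start.

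The libraries were deep, with 38870594 to 45317253 reads implied by the deposited values, and of 8 tumour and epithelial markers 5 were expressed in all 9: Krt8 (744 to 830 TPM), Krt18 (806 to 956 TPM), Krt19 (10.4 to 44.8 TPM), Msln (46.6 to 65.0 TPM) and Sox9 (20.6 to 36.7 TPM). Krt7 was at most 0.128 TPM, Epcam 0.0275 TPM and Cdh1 0.0176 TPM. The 8 summed to 1852 to 1906 TPM in myCAF, 1674 to 1769 TPM in qPSC and 1675 to 1838 TPM in iCAF cocultures. Of 16 leukocyte markers, 12 were at 0 in at least 7 libraries. Levels of 18 fibroblast markers moved with the groups and summed to 470 to 766 TPM in iCAF, 768 to 1215 TPM in myCAF and 745 to 875 TPM in qPSC cocultures, with Fap at 0 in 3 libraries and Col1a2, Lum and Tagln under 1 TPM. Which cells these transcripts came from was not tested. In bulk RNA, fewer cells of a type and less RNA per cell cannot be told apart, and the part of these marker differences in the results below was not tested. The library of iCAF replicate 3 stood apart, with 20.8% of its TPM in ribosomal protein genes against 14.0 to 14.9% in the other 8. It was the lowest of the 9 libraries for 28 of the 38 members, and for 68.0% of all tested genes. Tests of single members are therefore given both with all libraries and without it.

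Levels ranged widely among the members, from under 1 TPM for Cbs and Slc7a3 to the highest levels for Atf4, Phgdh, Psat1 and Nars, of which the lowest value in any library was 503 TPM (Nars). Summed over the 40 genes, they reached 8008 to 8631 TPM in myCAF, 7124 to 7536 TPM in qPSC and 6209 to 7245 TPM in iCAF cocultures. The myCAF libraries were above all others, while the iCAF and qPSC ranges overlapped. Within roles, synthetases summed to 2248 to 2447 TPM with myCAF partners, against 1993 to 2118 TPM in qPSC and 1735 to 2104 TPM in iCAF. Regulators stood lowest in iCAF, at 1101 to 1245 TPM against 1340 to 1409 TPM in qPSC and 1446 to 1531 TPM in myCAF.

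With all 9 libraries, few single members passed limma's test at an adjusted p under 0.05 (Benjamini-Hochberg over 11704 genes). Between iCAF and qPSC, 1 member was lower (Chac1) and 0 were higher, where 0.598% of all genes were lower and 0% higher. Between iCAF and myCAF, 1 was lower in iCAF (Cth), where 0.0598% of all genes were. Between myCAF and qPSC, 0 of 38 passed, and 0% of all genes did. A second test, limma-voom on implied reads, called 0 members in each of the 3 comparisons. It called 44 of 13166 genes in iCAF against qPSC, 5 in myCAF against qPSC and 0 in iCAF against myCAF. In myCAF against qPSC 17 of 38 members were higher at an unadjusted limma p under 0.05, where 2.67% of all genes were, and 0 were lower (3.77% of all genes). At the same level, 0 members were higher and 6 lower in iCAF against qPSC (1.95% and 13.9% of all genes), and 0 were higher and 28 lower in iCAF against myCAF (2.43% and 15.5%).

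Without iCAF replicate 3, which enters the spread of every test, the calls were more. In myCAF against qPSC 11 members passed, all higher (1.04% of all genes were higher and 1.80% lower): Gpt2, Mthfd2, Psat1, Sars, Aldh18a1, Lars, Pycr1, Shmt2, Asns, Cars and Psph. Each of these 11 log2 differences is the same with and without that library, since it belongs to neither group. In iCAF against myCAF 5 members were lower and 0 higher (0.479% and 0.120% of all genes): Gpt2, Cth, Trib3, Pycr1 and Chac1. In iCAF against qPSC 2 were lower and 0 higher (1.40% and 0.111% of all genes), Chac1 and Sesn2.

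**Figure D1:**
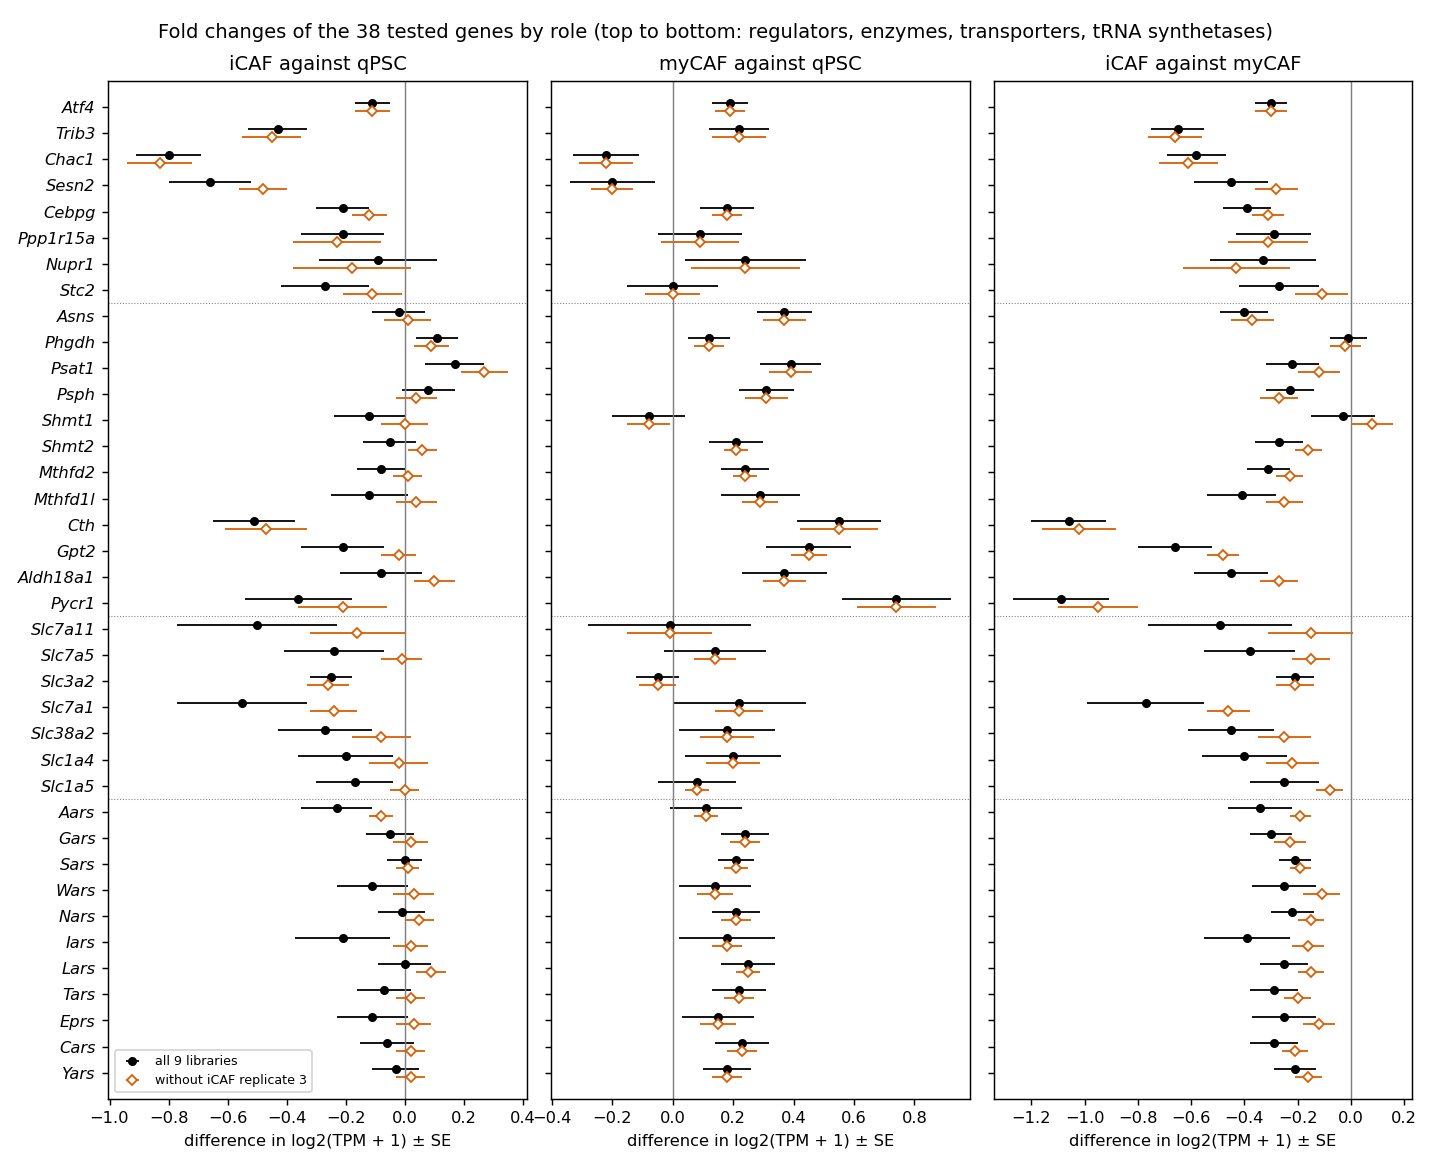
Difference in log2(TPM + 1) of each of the 38 tested members (y axis, in blocks by role) in the 3 comparisons, from limma with all 9 libraries (black) and without iCAF replicate 3 (orange); lines are ± 1 SE and the grey line marks 0. With all 9 libraries, all 38 members lie below 0 in iCAF against myCAF, and in myCAF against qPSC 11 of 12 enzymes and 11 of 11 synthetases lie above 0.

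The pattern of levels was read from whether the 3 libraries of 1 group all lay beyond those of another. In myCAF against qPSC, 23 of 38 members (60.5%) were above without overlap, against 11.3% of all genes, and 1 (Sesn2) was below, against 12.5%. In iCAF against myCAF, 27 of 38 (71.1%) were below without overlap, against 18.3% of all genes, and 0 were above (4.55%). In iCAF against qPSC, 9 of 38 (23.7%) were below, close to the 23.2% of all genes, and 0 were above (4.67%). The comparisons share groups, so they are not independent of one another. The members were chosen with earlier results of these data known, so these shares are a description and not an independent test. The shares over all genes were not matched to the members' levels.

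Scaling set the sign of many small differences against iCAF. The median over all genes was −0.15 in iCAF against qPSC on the log2 scale, and 35 of 38 members were negative with a median of −0.12. When each library was centred on its own median, the all-gene median became 0.05, with 17 members negative and 21 positive. Without iCAF replicate 3, the signs were split 19 to 19. In myCAF against qPSC this step changed little: 32 of 38 members were positive with a median of 0.20, against 0.01 for all genes, and after centring the count was again 32 and the median 0.20. In iCAF against myCAF, 38 of 38 were negative with a median of −0.31, against −0.15 for all genes, and 36 after centring, with a median of −0.10 against 0.05.

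**Figure D2:**
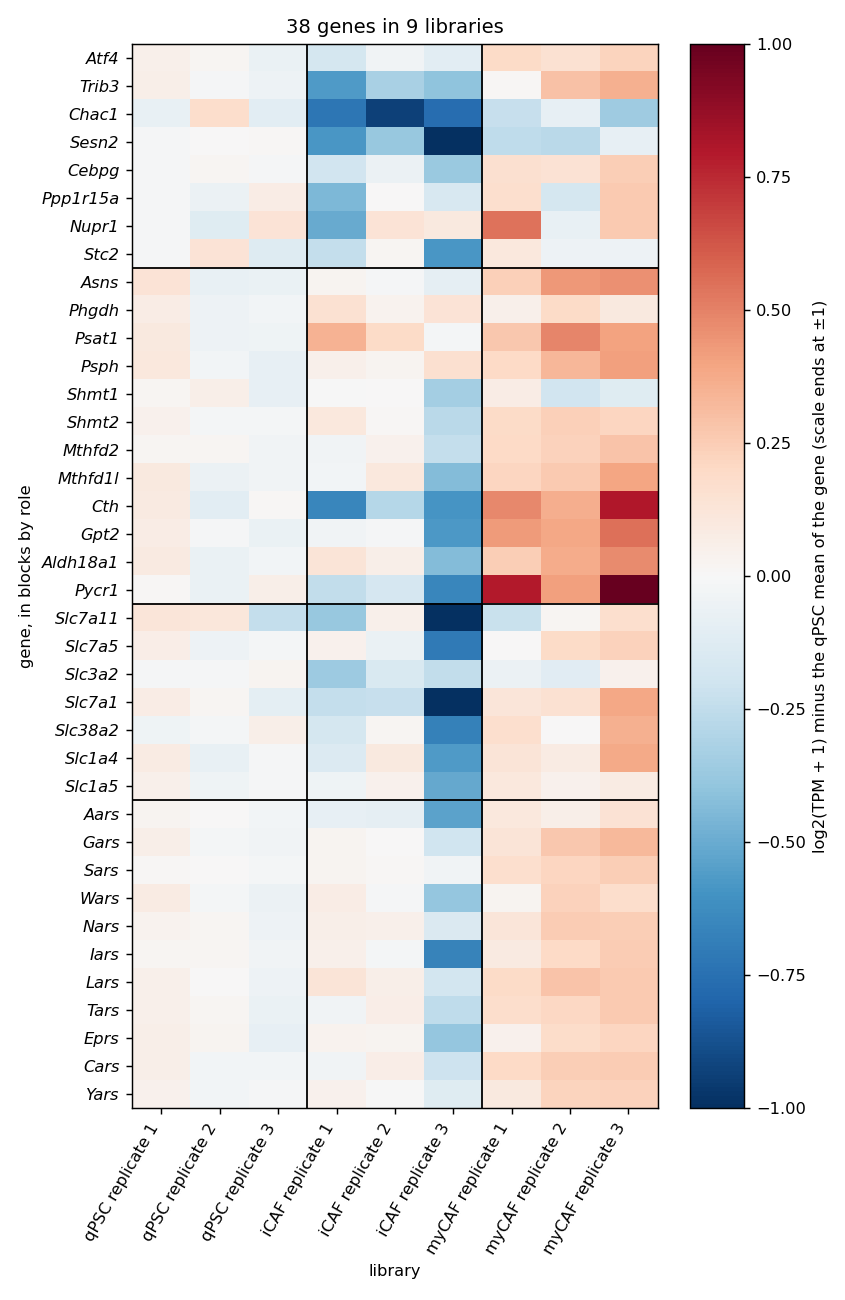
Members (rows, in blocks by role) in each library (columns), coloured by log2(TPM + 1) minus the mean of the 3 qPSC libraries, on a scale that ends at ±1. Most enzymes and synthetases are red in the myCAF columns, Chac1, Sesn2 and Trib3 are blue in all 3 iCAF columns, and the column of iCAF replicate 3 is the lowest for 28 of the 38 members.

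Among the stress regulators, the difference that passed was the lower level of Chac1 in iCAF cocultures, while Atf4 itself differed little. Chac1 encodes a γ-glutamylcyclotransferase that breaks down glutathione and is a widely used readout of ATF4 activity; the gene lies at chr2:119351229-119354381 on the plus strand (GENCODE M21, GRCm38). Its level was 109, 94.2 and 106 TPM in iCAF replicates 1 to 3, 154, 171 and 141 TPM in myCAF, and 172, 204 and 168 TPM in qPSC. All 3 iCAF libraries were below the other 6, and myCAF and qPSC overlapped. Chac1 was 1.75-fold lower in iCAF than in qPSC (log2 difference −0.80, SE 0.11, adjusted p = 0.0146 by limma, n = 3 per group, and 0.0102 without iCAF replicate 3). The adjusted p ranged from 0.0102 to 0.171 over 21 other settings and passed in 12 of them. Against myCAF the difference was −0.58 (SE 0.11, adjusted p = 0.0887, limma; 0.0487 without iCAF replicate 3).

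Sesn2 and Trib3 were also at their lowest in iCAF cocultures. Sesn2, a leucine sensor that restrains mTORC1, was at 59.1, 68.4 and 43.8 TPM in iCAF, 74.3, 73.8 and 84.2 TPM in myCAF, and 88.1, 89.2 and 89.8 TPM in qPSC. The 3 groups did not overlap at all, and Sesn2 was the only member lower in every myCAF library than in every qPSC library. Its log2 difference between iCAF and qPSC was −0.66 (SE 0.14, adjusted p = 0.0966 by limma); without iCAF replicate 3 it was −0.48 and passed (adjusted p = 0.0224). Trib3, a pseudokinase induced by ATF4 that in turn restrains it, was at 53.5, 63.3 and 60.2 TPM in iCAF, 80.5, 97.6 and 102 TPM in myCAF, and 83.1, 79.1 and 77.0 TPM in qPSC. The iCAF libraries lay below all others. Between iCAF and myCAF it differed by −0.65 on the log2 scale (SE 0.10, adjusted p = 0.0866 by limma, and 0.0354 without iCAF replicate 3).

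Atf4 was the most abundant regulator, at 686, 757 and 720 TPM in iCAF, 888, 862 and 904 TPM in myCAF, and 802, 788 and 739 TPM in qPSC. The myCAF libraries were the highest 3 of the 9, and iCAF and qPSC overlapped. Its log2 difference was 0.19 (SE 0.06, adjusted p = 0.517, limma) in myCAF against qPSC and −0.30 (SE 0.06, adjusted p = 0.113) in iCAF against myCAF, with adjusted p = 0.0803 and 0.0592 without iCAF replicate 3. Cebpg, a C/EBP partner of ATF4, ordered the groups likewise, with means of 33.2 ± 3.7, 43.6 ± 1.8 and 38.3 ± 0.52 TPM in iCAF, myCAF and qPSC (SD, n = 3) and no overlap between any groups. The groups overlapped in every comparison for Ppp1r15a, the eIF2α phosphatase subunit, for the nuclear stress protein Nupr1 and for the secreted glycoprotein Stc2. Over the whole role, 8 of 8 regulators were negative in iCAF against qPSC (median −0.24, against −0.15 for all genes), and 5 were positive in myCAF against qPSC (median 0.13). After centring each library, 6 were negative in iCAF against qPSC (median −0.04, against 0.05 for all genes). None of them, Chac1 included, then passed limma's adjusted test. With iCAF replicate 3 left out as well, 8 were negative (median −0.15, against 0.03 for all genes), and Chac1 and Sesn2 passed.

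**Figure D3:**
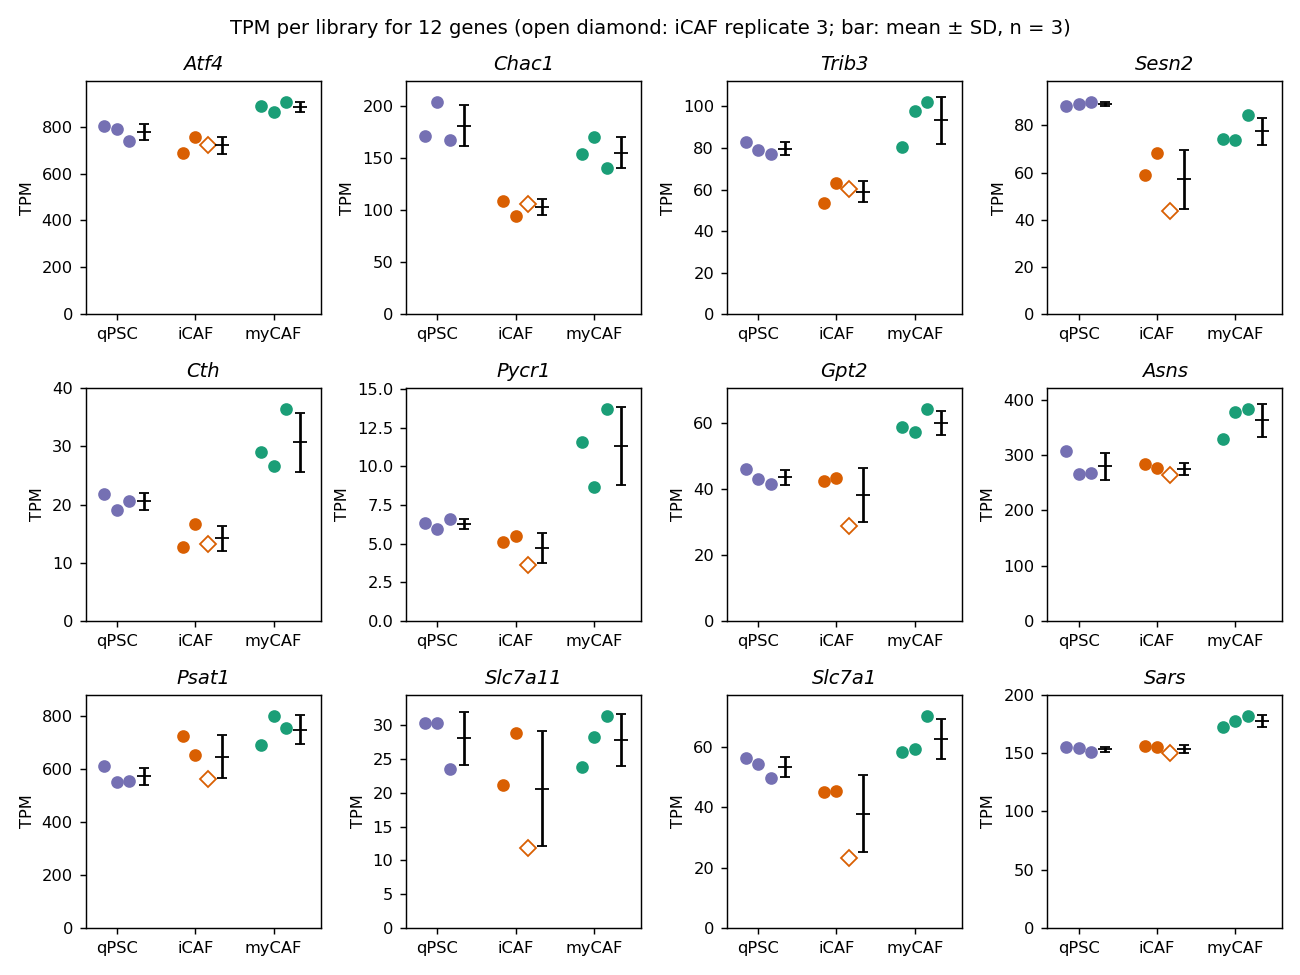
TPM of 12 members in each library (points, 3 per group, with an open diamond for iCAF replicate 3) and the mean ± SD beside them; each y axis starts at 0. Chac1, Trib3 and Sesn2 are lowest in iCAF cocultures, and Cth, Pycr1, Gpt2, Asns and Sars are higher in every myCAF library than in any other.

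Of the 4 roles, the synthesis enzymes had the largest median difference between myCAF and qPSC cocultures. Of 12 tested enzymes, 11 were positive in myCAF against qPSC with a median log2 difference of 0.34, and in 10 every myCAF library was above every qPSC library (11.3% of all genes). With all 9 libraries 0 passed limma's adjusted test (0% of all genes), while 9 were higher at an unadjusted p under 0.05 (2.67% of all genes). Without iCAF replicate 3, 8 of 12 passed as higher (1.04% of all genes) and 0 as lower (1.80%). Against qPSC, the iCAF libraries were close: 3 enzymes were positive and 9 negative, with a median of −0.08, and without iCAF replicate 3 the median was 0.02.

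Asns, which makes asparagine from aspartate and glutamine and is a classical ATF4 target, was at 284, 277 and 263 TPM in iCAF, 329, 377 and 383 TPM in myCAF, and 308, 265 and 267 TPM in qPSC. Every myCAF library was above the other 6, and iCAF and qPSC overlapped. The log2 difference between myCAF and qPSC was 0.37 (SE 0.09, 1.30-fold, adjusted p = 0.219 by limma, and 0.0366 without iCAF replicate 3).

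Serine is made from a glycolytic intermediate in steps run by Phgdh, Psat1 and Psph. Psat1, the aminotransferase of the second step, was at 727, 653 and 564 TPM in iCAF, 692, 802 and 756 TPM in myCAF, and 611, 553 and 555 TPM in qPSC. The myCAF libraries were all above qPSC and overlapped with iCAF. Its log2 difference from qPSC was 0.39 (SE 0.10, adjusted p = 0.269 by limma, and 0.0279 without iCAF replicate 3). Psph, the phosphatase of the last step, was at 57.5, 63.0 and 66.7 TPM with myCAF partners, against 53.8, 49.0 and 47.2 TPM in qPSC and 51.7, 51.0 and 55.9 TPM in iCAF (myCAF against qPSC 0.31, SE 0.09, adjusted p = 0.345, and 0.0451 without iCAF replicate 3, limma). Here too the myCAF libraries were the highest. Of the exonic 50-base stretches of Psph, 8.82% also occur, on the other strand, in Cct6a, and whether reads were counted by strand is not given in the sources used here. Phgdh, the first enzyme, was about level, with means of 775 ± 34, 780 ± 40 and 720 ± 34 TPM in iCAF, myCAF and qPSC (SD, n = 3). Its value is uncertain, since 47.78% of its exonic 50-base stretches also occur in other gene models, several of them pseudogene-like.

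The mitochondrial folate enzymes, which turn serine into glycine and formate, were all above qPSC in every myCAF library. Shmt2, the mitochondrial serine hydroxymethyltransferase, was at 408, 421 and 416 TPM with myCAF partners, against 368, 353 and 352 TPM in qPSC and 385, 360 and 296 TPM in iCAF. Mthfd2, the next enzyme of that arm, was at 259, 265 and 276 TPM with myCAF partners, against 229, 229 and 220 TPM in qPSC and 221, 233 and 191 TPM in iCAF. For both genes no library of another group reached the lowest myCAF library. The log2 differences between myCAF and qPSC were 0.21 for Shmt2 and 0.24 for Mthfd2, with limma adjusted p = 0.0338 and 0.0266 without iCAF replicate 3 and 0.757 and 0.522 with it. Mthfd1l, which completes the mitochondrial formate route, had a difference of 0.29 (adjusted p = 0.782, and 0.0501 without iCAF replicate 3, limma). The cytosolic isoform Shmt1 was the 1 enzyme with a negative value, −0.08, and its groups overlapped (29.8 ± 3.0 TPM in myCAF, 31.5 ± 1.7 TPM in qPSC; SD, n = 3).

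Proline is made from glutamate by Aldh18a1 and Pycr1 in turn. Aldh18a1 was at 262, 286 and 307 TPM with myCAF partners, against 235, 211 and 217 TPM in qPSC and 242, 230 and 163 TPM in iCAF, a log2 difference of 0.37 between myCAF and qPSC (SE 0.14, adjusted p = 0.625 by limma, and 0.0283 without iCAF replicate 3). Pycr1 had the largest difference of any member in myCAF against qPSC, but from a low level: 11.6, 8.67 and 13.7 TPM in myCAF, 6.31, 5.94 and 6.57 TPM in qPSC, and 5.13, 5.47 and 3.63 TPM in iCAF. The 3 groups did not overlap. Pycr1 was 1.67-fold higher in myCAF than in qPSC (log2 0.74, SE 0.18, adjusted p = 0.226 by limma, and 0.0298 without iCAF replicate 3). Between iCAF and myCAF the difference was −1.09 (SE 0.18, adjusted p = 0.0866, and 0.0362 without that library).

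Gpt2, the mitochondrial aminotransferase that makes alanine, was at 58.8, 57.1 and 64.1 TPM with myCAF partners, against 45.9, 43.1 and 41.5 TPM in qPSC and 42.4, 43.2 and 28.8 TPM in iCAF. All myCAF libraries were above the other 6. The log2 difference between myCAF and qPSC was 0.45 (SE 0.14, adjusted p = 0.439 by limma); without iCAF replicate 3 the adjusted p was 0.0122. Cth, which releases cysteine from cystathionine, was at 12.7, 16.6 and 13.3 TPM in iCAF, 29.0, 26.7 and 36.4 TPM in myCAF, and 21.9, 19.0 and 20.7 TPM in qPSC. The 3 groups were fully separate, with iCAF lowest and myCAF highest. Cth was 2.08-fold lower in iCAF than in myCAF (log2 difference −1.06, SE 0.14, adjusted p = 0.0474 by limma, n = 3 per group, and 0.0327 without iCAF replicate 3); the adjusted p ranged from 0.0178 to 0.344 over 21 other settings and passed in 5. Cbs, the enzyme before it, was close to 0 in all libraries, at 0.126 to 0.343 TPM.

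None of the 7 tested transporters passed limma's adjusted test in any comparison, with or without iCAF replicate 3. In myCAF against qPSC with all libraries 0% of all genes passed it. With all libraries, 2 of the 7 were lower at an unadjusted p under 0.05 in iCAF against qPSC (13.9% of all genes) and 0 higher (1.95%). In myCAF against qPSC 0 were higher (2.67% of all genes) and 0 lower (3.77%). In iCAF against myCAF 5 were lower (15.5% of all genes) and 0 higher (2.43%). Of the 7, 2 (Slc7a1 and Slc1a4) were above qPSC in every myCAF library, where 11.3% of all genes were, and 2 (Slc3a2 and Slc7a1, or 28.6%) were below it in every iCAF library, near the 23.2% of all genes. Of 7, 6 were lowest in iCAF replicate 3, Slc3a2 being the exception. Slc7a11, the cystine-glutamate exchanger, was at 21.2, 28.9 and 11.8 TPM in iCAF, 23.8, 28.3 and 31.4 TPM in myCAF, and 30.4, 30.3 and 23.5 TPM in qPSC. The groups overlapped, and the log2 difference between myCAF and qPSC was −0.01 (SE 0.27, adjusted p = 1.00, limma, and 0.983 without iCAF replicate 3).

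Slc7a5 carries leucine and other large neutral amino acids in a dimer with Slc3a2. Slc7a5 was at 331, 307 and 197 TPM in iCAF, 322, 367 and 378 TPM in myCAF, and 337, 311 and 318 TPM in qPSC, with overlap among all groups. Slc3a2, the shared heavy chain, was at 331, 382 and 359 TPM in iCAF, 408, 392 and 437 TPM in myCAF, and 422, 421 and 432 TPM in qPSC. Its iCAF libraries lay below the other 6 (against qPSC −0.25, SE 0.07, adjusted p = 0.207 by limma, and 0.114 without iCAF replicate 3). Slc7a1, a carrier of cationic amino acids, was at 45.2, 45.3 and 23.1 TPM in iCAF, 58.3, 59.5 and 70.4 TPM in myCAF, and 56.4, 54.3 and 49.9 TPM in qPSC. The groups did not overlap, and the largest transporter difference was that of Slc7a1 between iCAF and myCAF (−0.77, SE 0.22, adjusted p = 0.175, limma; −0.46 and 0.0573 without iCAF replicate 3). The neutral amino acid carrier Slc1a4 was barely above qPSC in every myCAF library (58.4 ± 6.8 against 50.7 ± 2.8 TPM, SD, n = 3). The lowest myCAF library was at 53.7 TPM and the highest qPSC library at 53.6 TPM. The log2 difference of Slc1a4 was 0.20 (SE 0.16, unadjusted p = 0.24 by limma). Without iCAF replicate 3 its unadjusted p was 0.0559 and its adjusted p 0.297 (limma). The glutamine carriers Slc1a5 and Slc38a2 overlapped between myCAF and qPSC.

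The tRNA synthetases, which join each amino acid to its tRNA, were all slightly higher on average in myCAF than in qPSC cocultures. The 11 values were positive, with log2 differences from 0.11 to 0.25 and a median of 0.21. In 9 of 11 every myCAF library was above every qPSC library, the exceptions being Wars and Eprs, where 11.3% of all genes were so placed. With all 9 libraries 0 passed limma's adjusted test (0% of all genes) and 7 were higher at an unadjusted p under 0.05 (2.67% of all genes). Without iCAF replicate 3, Sars, Lars and Cars passed (1.04% of all genes). In iCAF against myCAF all 11 were negative, from −0.39 to −0.21, and 10 of 11 were below without overlap (18.3% of all genes). All 11 were lowest in iCAF replicate 3; without it the values ran from −0.23 to −0.11. After centring each library all 11 were still negative, with a median of −0.05 (0.05 for all genes), against −0.25 as deposited (−0.15 for all genes). Then 0 of the 11 had an unadjusted limma p under 0.05, where 1093 of 11704 genes were lower and 1613 higher.

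Sars, the seryl-tRNA synthetase, was at 172, 178 and 182 TPM in myCAF, 155, 154 and 151 TPM in qPSC, and 156, 155 and 150 TPM in iCAF. The iCAF and qPSC libraries were at 1 level and the myCAF libraries above both (log2 0.21, SE 0.06, adjusted p = 0.368 by limma, and 0.0282 without iCAF replicate 3). Lars, for leucine, was at 196, 210 and 206 TPM with myCAF partners, against 178, 172 and 166 TPM in qPSC and 188, 179 and 151 TPM in iCAF (0.25, SE 0.09, adjusted p = 0.568, and 0.0298 without iCAF replicate 3, limma). Cars, for cysteine, was at 78.8, 81.5 and 81.8 TPM with myCAF partners, against 71.4, 67.1 and 67.2 TPM in qPSC and 67.0, 72.0 and 59.1 TPM in iCAF (0.23, SE 0.09, adjusted p = 0.577, and 0.0368 without iCAF replicate 3). In each of the 3 genes the myCAF libraries were the highest of the 9.

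Gars, for glycine, was at 417, 459 and 476 TPM in myCAF, 396, 375 and 371 TPM in qPSC, and 387, 382 and 332 TPM in iCAF, again with myCAF above all others (0.24, SE 0.08, adjusted p = 0.516, and 0.0501 without iCAF replicate 3, limma). Aars, for alanine, was the 1 synthetase of 11 (9.09%) lower in every iCAF library than in every qPSC library, where 23.2% of all genes were so placed. It was at 176, 175 and 128 TPM in iCAF against 190, 186 and 182 TPM in qPSC, with 200, 194 and 206 TPM in myCAF. Without iCAF replicate 3, 10 of 11 synthetases were positive in iCAF against qPSC (median 0.02, against −0.03 for all genes). Aars shares 13.51% of its exonic 50-base stretches with Exosc6, and Iars shares 7.15% of its own with the gene model Gm4849, so reads of both may be divided among models.

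Further genes of the same processes were counted alike. Of 12 further genes of cytosolic tRNA charging, 6 were positive and 6 negative in myCAF against qPSC (median −0.01), 3 were above without overlap, and 0 passed limma's adjusted test with or without iCAF replicate 3 (0 at an unadjusted p under 0.05 with all libraries). The smallest p was that of Mars, for methionine, with a difference of 0.16 (SE 0.09, adjusted p = 0.935, and 0.0622 without iCAF replicate 3). Of 17 mitochondrial synthetases, 7 were positive (median −0.04), and Yars2 alone passed without iCAF replicate 3, as lower (1.80% of all genes were). Of 17 further genes of folate and one-carbon metabolism, 8 were positive and 9 negative, and of 17 further genes of amino acid metabolism 11 and 6 (median 0.02), with the smallest p for Oat, the ornithine aminotransferase (0.18, SE 0.08, adjusted p = 0.731, and 0.0713 without iCAF replicate 3, limma). Of 12 further amino acid transporters, 8 were positive (median 0.07) and 0 passed limma's adjusted test (0% of all genes). At an unadjusted p under 0.05, 1 was higher (2.67% of all genes). That 1 was Slc7a2, a cationic amino acid carrier, at 12.5, 3.80 and 8.88 TPM with myCAF partners, 2.30, 3.33 and 4.13 TPM with qPSC and 1.57, 2.07 and 0.910 TPM with iCAF partners (myCAF against qPSC 1.04, SE 0.35, adjusted p = 0.509, and 0.135 without iCAF replicate 3). No test compared these lists with the members.

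Aldh1l2 is the mitochondrial 10-formyltetrahydrofolate dehydrogenase and so a neighbour of Mthfd2 and Mthfd1l. It was the 1 of 17 further one-carbon genes that passed in myCAF against qPSC without iCAF replicate 3, as higher (1.04% of all genes were). With all libraries 0 passed in that comparison (0% of all genes). Its level was 33.7, 22.1 and 39.0 TPM in myCAF, 16, 15.3 and 15.8 TPM in qPSC, and 12.4, 16.7 and 6.80 TPM in iCAF, with myCAF above all others (0.93 against qPSC, SE 0.29, adjusted p = 0.413 by limma, and 0.0366 without iCAF replicate 3). Among 16 eIF2 kinases, phosphatase and eIF2 factors, 7 were positive and 9 negative in myCAF against qPSC (median −0.01). Eif2s2 alone passed without iCAF replicate 3, as higher (1.04% of all genes were). Of 21 genes of the unfolded protein response of the endoplasmic reticulum, another route into ATF4, 20 were positive (median 0.12). In 10 of the 21 (47.6%) every myCAF library was above every qPSC library, against 11.3% of all genes. With all libraries 0 passed limma's adjusted test (0% of all genes) and 6 were higher at an unadjusted p under 0.05 (2.67% of all genes). Without iCAF replicate 3, 3 passed as higher (1.04% of all genes), the chaperones and folding enzymes Hspa5, Hsp90b1 and Pdia6. The level of Hspa5 averaged 1778 ± 24 TPM with myCAF partners and 1431 ± 38 TPM with qPSC partners (SD, n = 3). Higher values of this list were not particular to myCAF. In iCAF against qPSC 12 of the 21 were positive with all libraries (median 0.01, against −0.15 for all genes). Without iCAF replicate 3, 18 were positive (median 0.11, against −0.03). Of the 21, 10 (47.6%) were then above without overlap, against 14.5% of all genes, and 0 passed limma's adjusted test.

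**Figure D4:**
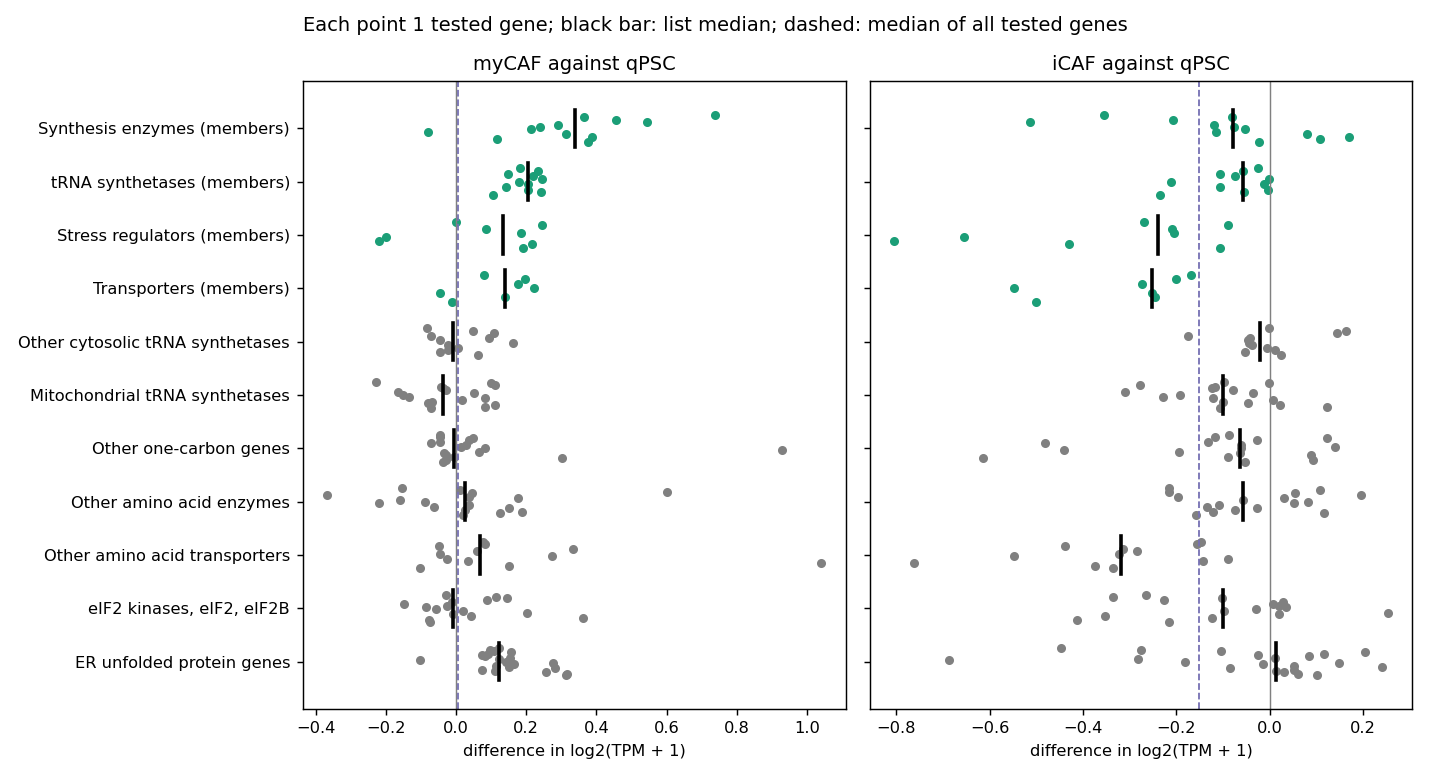
Difference in log2(TPM + 1) of each tested gene (points) in the 4 member roles (green) and 7 further lists (grey), for myCAF and for iCAF against qPSC; black bars are list medians and the dashed line is the median of all 11704 tested genes. In myCAF against qPSC the synthesis enzymes have the highest list median (0.34), and the other cytosolic synthetases have a median of −0.01.

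Fibroblast markers moved along with these differences. In myCAF against qPSC 11 of 14 tested markers were positive (median 0.27). Without iCAF replicate 3, Sparc, Postn and Acta2 passed as higher (1.04% of all genes) and Fbln1 as lower (1.80%). In iCAF against myCAF 13 of 14 were negative (median −0.95, against −0.15 for all genes). Postn, a matrix protein of activated fibroblasts, passed as lower with all libraries, where 0.0598% of all genes did (−3.23, SE 0.33, adjusted p = 0.0325 by limma, and 0.0158 without iCAF replicate 3). Early-response genes that follow cell handling also moved, with 14 of 18 negative in iCAF against qPSC (median −0.43, against −0.15 for all genes). Of these, Egr3 and Btg2 passed limma's adjusted test, where 0.598% of all genes were lower. Without iCAF replicate 3, 5 genes passed, these 2 among them, where 1.40% of all genes were lower. Of the tumour and epithelial markers, 5 of 5 tested were positive in myCAF against qPSC (median 0.13), and Krt19 had a difference of 1.39 (SE 0.36, adjusted p = 0.268 by limma, and 0.0303 without iCAF replicate 3). Proliferation genes were at a median of 0.07 in myCAF against qPSC, with 0 of 12 passing limma's adjusted test (0% of all genes). At an unadjusted p under 0.05 there were 0 (2.67% of all genes were higher and 3.77% lower). The part of any of these in the members' differences was not tested.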

How the data were processed

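RNA of sorted PancOVA cells was measured in 9 libraries, 3 for each fibroblast partner. The deposited TPM values (length-corrected, scaled to 1000000 per library) were used as the authors gave them; the submitters' processing notes name Salmon, R 4.0.1 and DESeq2 with no role, and the genome build is not given in the sources used here. The authors' own difference and fold columns (2) were not used. Reads per gene were recovered from the steps of low values, of which 97.81 to 98.05% were whole within 0.05 reads, and served for depth and the limma-voom alternative only.

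Genes at 1 TPM or more in at least 3 libraries were tested with limma 3.58.1 (R 4.3.3, trended variance) on log2(TPM + 1) in 1 fit of all 9 libraries, with Benjamini-Hochberg adjustment over all tested genes and a threshold of 0.05. Fold changes are on this scale, which understates changes of low genes. The members and lists were chosen with earlier results of these data known. Named members were Atf4, Trib3, Chac1, Asns, Phgdh, Psat1, Mthfd2, Slc7a11, Slc7a5 and Slc3a2, any member called with or without iCAF replicate 3, and the member of each role with the smallest p in each comparison; others named, such as Cebpg, Mthfd1l and Slc1a4, were chosen after their values were seen. Replicates of a group correlated at 0.98 to 0.997 and differed beyond counting noise, so none was merged. Alternatives were other pseudocounts, filters and scalings, each pair of groups alone, no variance trend, a replicate block, and leaving out each library. Coordinates are from GENCODE M21 and promoters from RefSeq, both GRCm38.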

Additional observations from a re-analysis of the deposited data

How the results depend on the processing

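With 3 libraries per group, calls were few and moved with the settings. Genes and members called were 70 and 1 in iCAF against qPSC, 0 and 0 in myCAF against qPSC, and 7 and 1 in iCAF against myCAF. In iCAF against qPSC the genes called were 24 after centring each library, 33 with upper quartile scaling, 5 with no filter, 30 in a fit of the 6 libraries alone, 22 with the replicate block and 44 with limma-voom on implied reads, chosen after seeing the data; 0 members were called with centring, upper quartile scaling, no filter, the block or limma-voom, and 2 without iCAF replicate 3 with centring. In myCAF against qPSC they were 4 with a pseudocount of 5, 1 with no filter, 378 (12 members) in the 6 libraries alone, 347 (9 members) without iCAF replicate 3 with centring, 66 (1 member, Gpt2) without it with the block, and 5 with limma-voom. In iCAF against myCAF they were 0 with centring, a pseudocount of 5, the 6 libraries alone, the block or limma-voom, 2 with upper quartile scaling, 1 each with a pseudocount of 0.1, no filter or no trend (0 members in all of these), and 52 (3 members) without iCAF replicate 3 with centring; without it with the block 0 members were called. Leaving out 1 library at a time gave 0 to 194 genes and 0 to 2 members in iCAF against qPSC, 0 to 331 and 0 to 11 in myCAF against qPSC, and 0 to 281 and 0 to 5 in iCAF against myCAF. All 11 members in myCAF against qPSC came without iCAF replicate 3, and leaving out any other library gave 0. Same-numbered libraries of different groups were compared by how each library deviated from its group mean. These deviations correlated at −0.353 to 0.248, and those of 1 of 9 libraries correlated best with a library of its own number. With 3 libraries per group this cannot settle whether the replicate numbers pair the libraries. Of 504 values of named members per comparison, 0 reversed direction past the test. A reversal was counted only with an adjusted p under 0.05 in the main fit or the alternative, so few values could show one. In iCAF against qPSC 76 values without a call moved by more than the mean SD within groups, 9 lost their call and 3 gained one. These counts were 1, 0 and 30 in myCAF against qPSC and 78, 16 and 11 in iCAF against myCAF. The cause of these changes was not tested.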

Other observations

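Of 16 further tested genes tied to ATF4 or its partners, 15 were negative in iCAF against qPSC (median −0.29, against −0.15 for all genes), and 2 passed limma's adjusted test, where 0.598% of all genes were lower. After centring each library the median was −0.09 with 13 negative, and 0 of the 16 passed, 4 being lower at an unadjusted p under 0.05. Vegfa, the angiogenic growth factor, was at 60.6, 79.7 and 63.7 TPM in iCAF, 114, 142 and 125 TPM in myCAF, and 122, 113 and 110 TPM in qPSC (−0.76, SE 0.12, adjusted p = 0.0357, and 0.0277 without iCAF replicate 3, limma). Ddit4, an inhibitor of mTORC1 like Sesn2, was at 76.2, 92.2 and 94.0 TPM in iCAF against 128, 130 and 139 TPM in qPSC and 126, 149 and 128 TPM in myCAF (−0.60, SE 0.10, adjusted p = 0.0442, and 0.0173 without iCAF replicate 3, limma). For both genes the iCAF libraries lay below the other 6, as for Chac1, Sesn2 and Trib3.

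Some genes of that list passed only in the fit without iCAF replicate 3. Cebpd, a C/EBP factor, was at 21.0, 26.1 and 39.0 TPM in iCAF, 42.5, 34.6 and 36.8 TPM in myCAF, and 55.4, 57.1 and 59.5 TPM in qPSC, highest in qPSC, unlike Atf4 and Cebpg. Its log2 difference from qPSC without iCAF replicate 3 was −1.26 in iCAF (adjusted p = 0.00143, limma) and −0.59 in myCAF (adjusted p = 0.0195). Ero1l, an oxidase of protein folding, was at 260, 253 and 359 TPM with myCAF partners, against 158, 121 and 157 TPM in qPSC (0.99, adjusted p = 0.219 by limma, and 0.0474 without iCAF replicate 3). Of 17 genes of amino acid sensing by mTORC1, 10 were positive in myCAF against qPSC (median 0.02) and 0 passed limma's adjusted test (0% of all genes). At an unadjusted p under 0.05 there were 0 (2.67% of all genes were higher and 3.77% lower).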
